A study of Mus musculus with 4 samples.

Results

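The genes described here encode growth factors linked to fibrosis that macrophages and other lung cells make, with 2 receptors of insulin-like growth factors. They are Igf1, Igf1r, Igf2r, Pdgfa, Pdgfb, Pdgfc, Vegfa, Vegfb, Hgf and Grn. They were taken by name from a table of 16755 genes, by a rule that uses no measured value but was written with earlier results of these data known, and all 10 of 10 named genes were in it. The data are bulk RNA-seq of alveolar macrophages, the resident phagocytes of the air sacs, sorted by flow cytometry from mouse lung, with 2 libraries of C57BL6 wild-type mice (WT) and 2 of mice without osteopontin (knock-out, OPNKO). Osteopontin, the product of Spp1, is a secreted matrix protein that binds integrins and CD44. All 4 libraries carry a bleomycin tag, a drug that injures the lung and is followed by fibrosis, and the table's columns name day 14, while a protocol field of the same samples reads as untreated. No library from uninjured lung was analysed here, no age of the mice and no description of the Spp1 allele was found in the labels, and the labels do not say whether replicates came from separate animals, so the p-values measure only the spread between these libraries, which may be technical.

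Insulin-like growth factor 1, from Igf1, acts through the receptor tyrosine kinase encoded by Igf1r, while the product of Igf2r carries lysosomal enzymes and clears IGF2. Platelet-derived growth factors are dimers of chains such as those of Pdgfa, Pdgfb and Pdgfc, and they drive migration and division of fibroblasts and pericytes. Vegfa is the main growth factor of blood vessels and is induced by hypoxia, Vegfb is its relative, Hgf acts on epithelium through the receptor MET and is known to protect against lung fibrosis in mice, and Grn encodes progranulin, a secreted and lysosomal glycoprotein abundant in macrophages. Activated macrophages are a known source of IGF1 and PDGF during lung repair.

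The start regions of 3 genes are shown because the results turn on them: Igf1 is the member that passed the test, Vegfa is the member that split the libraries of a genotype, and Grn is the member with the highest level. Each sequence runs 5′ to 3′ from 250 bases before to 50 bases after a RefSeq transcript start on GRCm38.p6. RefSeq gave such windows for 9 of the 10 genes, and the Igf1 window lies inside the gene span of the annotation used for lengths. Capitals mark a match on either strand to GAGGAA, the core bound by the macrophage factor PU.1. The search also covered ACGTG, the core of the hypoxia response element, and the E-box CACGTG, which contains that core; neither is in these 3 windows.
Igf1, chr10:87860861-87861160, plus strand: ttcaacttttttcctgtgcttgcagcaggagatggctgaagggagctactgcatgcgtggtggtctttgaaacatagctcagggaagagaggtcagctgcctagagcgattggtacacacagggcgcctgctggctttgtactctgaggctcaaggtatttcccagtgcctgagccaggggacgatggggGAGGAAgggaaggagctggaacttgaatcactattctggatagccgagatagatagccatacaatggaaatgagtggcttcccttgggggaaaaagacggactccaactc
Vegfa, chr17:46032328-46032627, minus strand: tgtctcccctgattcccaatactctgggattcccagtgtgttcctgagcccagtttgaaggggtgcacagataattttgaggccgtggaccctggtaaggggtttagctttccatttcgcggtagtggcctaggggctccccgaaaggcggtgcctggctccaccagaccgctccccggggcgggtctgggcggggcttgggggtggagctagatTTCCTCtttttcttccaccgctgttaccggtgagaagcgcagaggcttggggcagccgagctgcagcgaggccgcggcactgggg
Grn, chr11:102430257-102430556, plus strand: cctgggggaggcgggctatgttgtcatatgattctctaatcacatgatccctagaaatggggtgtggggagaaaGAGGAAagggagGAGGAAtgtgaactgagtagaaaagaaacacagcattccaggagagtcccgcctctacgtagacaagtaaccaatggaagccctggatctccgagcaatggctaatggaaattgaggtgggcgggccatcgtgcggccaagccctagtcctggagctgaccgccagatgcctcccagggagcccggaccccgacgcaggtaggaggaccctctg
GAGGAA was found once in the Igf1 and Vegfa windows and 2 times in the Grn window, and 28.3% of all 32851 windows in the table held it. The E-box was in 7.15% of all windows and the hypoxia core in 19.6%. Among the 10 genes, the Igf2r window had 2 E-boxes, each of which reads as the hypoxia core on both strands and so gives its 4 matches to that core, and a second Vegfa window (chr17:46025114-46025413, not printed) had 1 hypoxia core. These are matches of letters in short windows and were not set against the expression values.

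The targeted gene was checked first. Spp1 had normalized read counts of 545719 and 606517 in WT and of 4106 and 3847 in the libraries titled OPNKO, which follows the titles by which the libraries were grouped; the genotype tag disagrees with the title for 2 of the 4 libraries. The libraries held 35793800 to 44759630 reads in genes. All 20 markers of resident alveolar macrophages were detected in every library, with summed normalized counts of 1002815 and 985445 in WT and 698349 and 821503 in OPNKO, of which 7 of 20 rose and 2 fell in OPNKO. Replicates were not copies of one library, since their reads differed beyond counting error (chi-square over its degrees of freedom 15.6 in WT and 18.02 in OPNKO). Among 15 fibroblast markers, the summed count was 1207 and 6249 in WT replicates 1 and 2 and 1197 and 848 in OPNKO replicates 1 and 2, so WT replicate 2 stood apart.

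Igf1 rose in OPNKO, and it was the 1 member of 10 that passed the test. The share of all 16431 genes tested that passed in that direction was 2.33%, against 1.98% in the other and 4.32% in either; 0 members fell. Igf1 had normalized read counts of 8516 and 8199.8 in WT replicates 1 and 2, and of 11459.8 and 10395 in OPNKO replicates 1 and 2. Both OPNKO libraries lay above both WT libraries, and the gap between the groups was wider than that within either. The mean went from 8358 ± 223 to 10927 ± 753 (SD, n = 2 each), a fold of 1.31 with a 95% interval of 1.16 to 1.47. On the log2(value + 1) scale the difference was 0.39 ± 0.07 (SE) at a limma adjusted p of 0.0305; limma fits each gene by a linear model and borrows its spread from the others. In the authors' deposited table Igf1 also passed, with a log2 fold change of 0.39 (Wald test, adjusted p = 0.00426), as did 4.34% of all its genes and no other member. The call rests on 3 of the libraries: the log2 fold change was 0.41 without WT replicate 1 (limma adjusted p = 0.210), 0.36 without WT replicate 2 (limma adjusted p = 0.298), 0.31 without OPNKO replicate 1 (limma adjusted p = 0.101) and 0.46 without OPNKO replicate 2 (limma adjusted p = 0.0379). In bulk RNA, more cells with Igf1 transcripts and more transcripts per cell cannot be told apart. Igf1 (ENSMUSG00000020053) lies on chromosome 10 from 87858265 to 87937042 on the plus strand (GRCm38, GENCODE M21).

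**Figure D1:**
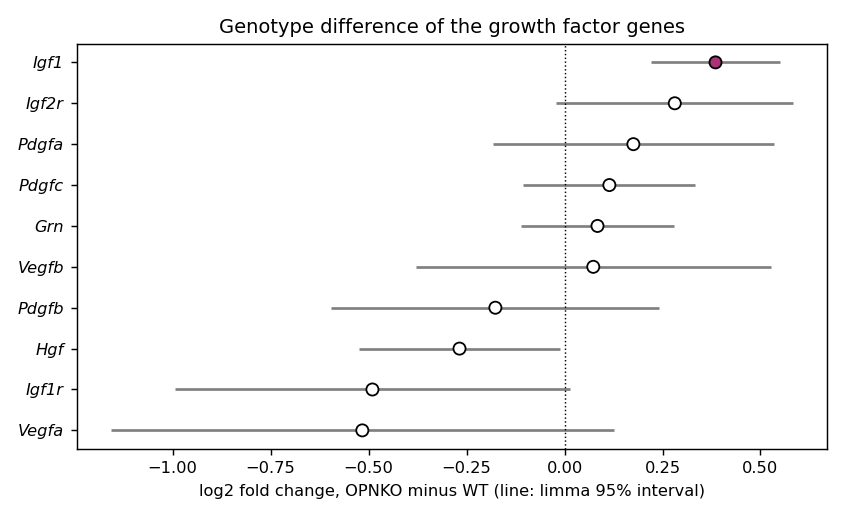
Log2 fold change of each growth factor gene (horizontal axis, OPNKO minus WT, on log2(value + 1)), with limma's 95% interval as a line; the filled point is past the threshold and open points are not. Igf1 at 0.39 is the filled point, and the intervals of the others, except that of Hgf (-0.52 to -0.01), cross 0.

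Cells other than macrophages make IGF1 in the lung, above all fibroblasts. The summed fibroblast markers were highest in WT replicate 2, and no fibroblast marker was at 0 in any library. Of 16 monocyte markers 0 rose and 4 fell in OPNKO (among them Ccr2), with summed counts of 488034 and 471978 in WT and 504032 and 442814 in OPNKO. Of 15 interstitial macrophage markers 0 rose, 1 fell (6.67%) and 14 had a negative log2 fold change (median -0.41). Their sums were 227489 and 252028 in WT and 288416 and 169452 in OPNKO. Of 12 T cell markers 7 rose in OPNKO (58.3%), 0 fell and 12 of 12 had a positive log2 fold change. Sums of the T cell markers were 2786 and 3344 in WT and 6531 and 10572 in OPNKO, with no marker at 0. Of 13 dendritic cell markers 0 rose, 3 fell (23.1%: Fscn1, Mgl2 and Ccl17) and 12 had a negative log2 fold change. Sums of the dendritic cell markers were 4340 and 6300 in WT and 2507 and 2308 in OPNKO. Of 11 B and plasma cell markers 0 rose and 3 fell (27.3%), with sums of 13850 and 17256 in WT and 4138 and 3495 in OPNKO. Whether these cells had a part in the Igf1 difference was not tested. By the distance between log2 values centred on their mean over the 4 libraries, the 5 genes nearest to Igf1 among 8081 with a mean value of at least 500 were Trim47 (distance 0.02), A230046K03Rik (0.04), Fam179b (0.04), Fam120c (0.05) and Cep70 (0.05).

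The receptors of the family, Igf1r on chromosome 7 (67952827 to 68233668) and Igf2r on chromosome 17 (12682406 to 12769664), did not pass. Igf1r, the receptor of IGF1, had normalized read counts of 168 and 229 in WT and of 129 and 151 in OPNKO. Both OPNKO libraries lay below both WT libraries, but the WT libraries differed nearly as much from each other (0.45 on the log2 scale) as the genotypes did. The log2 fold change was -0.49 ± 0.21 (SE) at a limma adjusted p of 0.249, with a 95% interval of -0.99 to 0.01. Igf1r rested on few reads, 113 to 235 in a library. Igf2r had 2988 and 3403 in WT and 4435 and 3387 in OPNKO, so its groups overlapped, with OPNKO replicate 1 highest. Its log2 fold change was 0.28 ± 0.13 (SE) at a limma adjusted p of 0.268, with a 95% interval of -0.02 to 0.58; without OPNKO replicate 1 it was 0.09 (limma adjusted p = 0.681), against 0.48 when OPNKO replicate 2 was left out (limma adjusted p = 0.0625). The antisense gene Airn lies over Igf2r without sharing exonic bases and had 9.87 to 24.4, far under Igf2r in every library.

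Beside Igf1, Igf1r and Igf2r, 21 of 28 other genes of the IGF system (ligands, binding proteins, proteases and adaptors) were in the table. Of these 1 rose and 1 fell, 9.52% against 4.32% of all genes. The median log2 fold change was -0.47, where the median of all genes tested was -0.00056. That list median is the value of Igf2, which had only 7 and 30 reads in WT and 10 and 8 in OPNKO (limma adjusted p = 0.736). Igfbp4, which encodes a binding protein that holds IGF1 away from its receptor, had 324 and 576 in WT and 191 and 177 in OPNKO. Both OPNKO libraries were lower, at a log2 fold change of -1.23 ± 0.26 (SE) at a limma adjusted p of 0.0461, and the WT libraries were far apart. Igfbp4 did not pass in 8 of 14 alternatives, among them edgeR's quasi-likelihood test (adjusted p = 0.0520) and each library left out, where its log2 fold change ran from -1.64 without WT replicate 1 to -0.81 without WT replicate 2 (limma adjusted p = 0.111 to 0.280). Fibroblasts and vessels express Igfbp4 strongly, and 16 of the 21 genes had their higher WT value in replicate 2 (median log2 difference 1.05), as did 15 of 15 fibroblast markers (median 2.16) and 14 of 14 endothelial markers (median 2.11); their part in the Igfbp4 difference was not tested. Igf2bp3, an RNA-binding protein gene named for its binding of Igf2 mRNA, had 31.8 and 16.6 in WT and 82.2 and 98.3 in OPNKO, and both OPNKO libraries were higher. Its log2 fold change of 1.92 ± 0.39 (SE) at a limma adjusted p of 0.0422 rests on 17 to 79 reads in a library. Igf2bp3 did not pass in 6 of 14 alternatives, among them a floor of 50 on the mean value (limma adjusted p = 0.0662) and each library left out, where its log2 fold change ran from 1.47 without WT replicate 2 to 2.37 without WT replicate 1 (limma adjusted p = 0.111 to 0.269). The insulin receptor gene Insr had 5147 and 4491 in WT and 6099 and 6268 in OPNKO, with a log2 fold change of 0.36 that did not pass (limma adjusted p = 0.0511), while in the authors' deposited table it passed (Wald test, adjusted p = 0.0156).

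None of the PDGF chains passed. On GRCm38, Pdgfa lies on chromosome 5 (138976014 to 138997370), Pdgfb on chromosome 15 (79995874 to 80014977) and Pdgfc on chromosome 3 (81036416 to 81214040). Pdgfa had normalized read counts of 559 and 598 in WT and of 763 and 560.1 in OPNKO. Pdgfb had 952 and 1304 in WT and 1135 and 856 in OPNKO. Pdgfc had 2763 and 2340.3 in WT and 2858 and 2651 in OPNKO. Values of the groups overlapped for all 3 chains. The log2 fold changes were 0.18 for Pdgfa (95% interval -0.18 to 0.53), -0.18 for Pdgfb (-0.60 to 0.24) and 0.11 for Pdgfc (-0.10 to 0.33), with limma adjusted p of 0.560, 0.621 and 0.534. With a library left out, the sign of each of the 3 turned: to -0.047 for Pdgfa without OPNKO replicate 1, to 0.050 and 0.026 for Pdgfb without WT replicate 2 and without OPNKO replicate 2, and to -0.0054 for Pdgfc without WT replicate 2. The antisense gene 6330403L08Rik shares 813 exonic bases with Pdgfa and had 149 to 264, and with the strand setting of the counting not stated, reads of the pair may not be told apart.

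Of 11 other genes of the PDGF system, 0 rose and 1 fell (9.09%, against 4.32% of all genes tested), with a median of -0.42. That median is the value of Furin, the gene that fell, and so adds nothing to it. Furin, the convertase that cuts the PDGF A and B precursors, had 39803 and 35025 in WT and 28833 and 26906 in OPNKO. Both OPNKO libraries were lower, by 0.42 on the log2 scale (OPNKO minus WT -0.42 ± 0.09, SE, at a limma adjusted p of 0.0441). Furin did not pass with any library left out (limma adjusted p = 0.102 to 0.244). The receptor genes Pdgfra and Pdgfrb, which mark fibroblasts and pericytes, were low. Pdgfra had 36.2 and 151 in WT and 52.5 and 32.4 in OPNKO, and Pdgfrb had 32.9 and 172 in WT and 43.4 and 39.8 in OPNKO. WT replicate 2 was the high library for both, as it was for the fibroblast markers, and the groups overlapped. Pdgfra is itself in the fibroblast list, so its likeness to that list is partly built in. Plat, whose product activates PDGF-C, had 28.5 and 95.6 in WT and 15.98 and 14.9 in OPNKO (limma adjusted p = 0.156).

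Vegfa was the member with the largest difference between 2 libraries of a genotype. It had normalized read counts of 949 and 976 in WT and of 946 and 478 in OPNKO. OPNKO replicate 1 was level with WT and OPNKO replicate 2 was far below, so the groups were apart by no more than the narrow gap between 946 and 949. The mean went from 962 ± 19.1 to 712 ± 331 (SD, n = 2 each), a log2 fold change of -0.52 ± 0.27 (SE) at a limma adjusted p of 0.330 with a 95% interval of -1.16 to 0.13. Without OPNKO replicate 1 the log2 fold change was -1.01 and passed (limma adjusted p = 0.0117), while leaving out OPNKO replicate 2 gave -0.024 (limma adjusted p = 0.935). Vegfa lies on chromosome 17 (46016993 to 46032369) and Vegfb on chromosome 19 (6982473 to 6987651). The sum over 13 annotated transcripts of Vegfa was counted, so its isoforms cannot be told apart. Vegfb had 362 and 299 in WT and 411 and 291 in OPNKO, with overlapping groups and a log2 fold change of 0.07 (95% interval -0.38 to 0.53; limma adjusted p = 0.867) that was -0.065 without WT replicate 2 and -0.17 without OPNKO replicate 1.

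**Figure D2:**
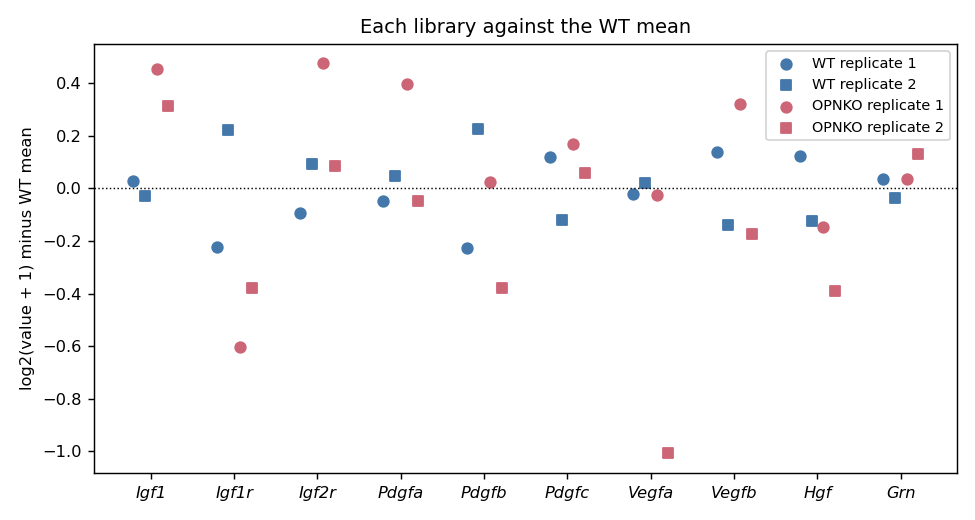
Log2(value + 1) of each growth factor gene in each library minus the mean of the WT libraries (vertical axis); circles are replicate 1 and squares replicate 2, blue is WT and red OPNKO. Vegfa in OPNKO replicate 2 lies near -1, the lowest point of the plot, while both OPNKO points of Igf1 lie above both WT points.

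Of 17 other genes of the VEGF system, 1 rose and 0 fell (5.88%, against 4.32% of all genes tested), with a median of -0.03. Flt1, which encodes VEGF receptor 1, a receptor that binds VEGFA, VEGFB and placental growth factor and is carried by monocytes and macrophages as well as by endothelium, had 4498 and 3556 in WT and 6698 and 8431 in OPNKO. Both OPNKO libraries were higher, at a fold of 1.88 and a log2 fold change of 0.91 ± 0.14 (SE) at a limma adjusted p of 0.0168. Without WT replicate 1 it was 1.08 (limma adjusted p = 0.158) and without WT replicate 2 it was 0.74 (limma adjusted p = 0.228). Kdr, the VEGF receptor 2 gene of endothelium, had 60.3 and 236 in WT and 113 and 89.6 in OPNKO, so it did not follow Flt1. Summed endothelial markers were 5242 and 7487 in WT and 7221 and 6694 in OPNKO, with overlapping groups and no marker at 0. Most of that sum was Vwf, which platelets also carry and which rose from 4553 and 4872 to 6297 and 5929 (limma adjusted p = 0.0288). Vwf was the 1 of 14 endothelial markers that passed (7.14%), and 13 of the 14 had a negative log2 fold change. Their part in the Flt1 difference was not tested. Hif1a, the oxygen-regulated activator of Vegfa, had 12210.2 and 11158 in WT and 9847 and 9298 in OPNKO, with a log2 fold change of -0.29 that did not pass (limma adjusted p = 0.0745), while in the authors' deposited table it passed (Wald test, adjusted p = 0.0402).

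Among 18 targets of the hypoxia response other than Vegfa, 1 rose and 2 fell (16.7%, against 4.32% of all genes tested). The median was -0.25, with 13 of 18 negative. Like the other lists, this one was chosen with earlier results of these data known. Slc2a1, a glucose transporter gene, fell from 4317 and 4296 in WT to 3459 and 2967 in OPNKO (log2 fold change -0.43; limma adjusted p = 0.0377). Ddit4, an inhibitor of mTOR signalling, fell from 362 and 347 to 199.8 and 180.5 (log2 fold change -0.90; limma adjusted p = 0.0195). Pfkfb3, a regulator of glycolysis, rose from 3077 and 3064 to 4403 and 3875 (log2 fold change 0.43; limma adjusted p = 0.0290). Of these 3 genes, 0 passed without WT replicate 1 or without WT replicate 2. Without OPNKO replicate 1, Pfkfb3 did not pass (limma adjusted p = 0.0762), and without OPNKO replicate 2, Slc2a1 (limma adjusted p = 0.0946) and Ddit4 (limma adjusted p = 0.0559) did not. Between the OPNKO libraries, Vegfa differed by -0.98 on the log2 scale (replicate 2 minus replicate 1), and the list had a median of -0.12 with 10 of 18 lower in replicate 2. The differences of P4ha2 (-2.59) and Adm (-1.74) were larger than that of Vegfa, at values of 12.6 and 1.24 for P4ha2 and of 14.8 and 3.73 for Adm in OPNKO replicates 1 and 2.

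Hgf had normalized read counts of 4781 and 4019.9 in WT and of 3958 and 3348 in OPNKO. Both OPNKO libraries lay below both WT libraries, and the difference did not pass. The mean went from 4400.2 ± 538 to 3653 ± 431 (SD, n = 2 each), a log2 fold change of -0.27 ± 0.11 (SE) at a limma adjusted p of 0.218 with a 95% interval of -0.52 to -0.01. With the replicate number as a block it passed (limma adjusted p = 0.0264), though the numbers are not known to pair the libraries. Hgf lies on chromosome 5 (16553495 to 16620152), and whether other cells had a part in its difference was not tested. Of 10 other genes of the HGF system, 0 rose and 1 fell (10.0%, against 4.32% of all genes tested), with a median of -0.12. Spint1, an inhibitor of the proteases that activate HGF, had 5856 and 5514 in WT and 3622 and 4067 in OPNKO. Both OPNKO libraries were lower, at a log2 fold change of -0.57 ± 0.08 (SE) at a limma adjusted p of 0.0118, with -0.52 without WT replicate 1 (limma adjusted p = 0.185) and -0.61 without WT replicate 2 (limma adjusted p = 0.173). Spint1 is also an epithelial gene, and 16 markers of alveolar and airway epithelium had summed counts of 10741 and 12921 in WT and 7895 and 7664 in OPNKO. Of these markers 0 rose and 2 fell (Cdh1 and Napsa, 12.5%), and no marker was at 0. Their part in the Spint1 difference was not tested. The related inhibitor gene Spint2 had 133 and 149 in WT and 218 and 290.02 in OPNKO, with a log2 fold change of 0.83 that did not pass (limma adjusted p = 0.0666). Met, the HGF receptor gene, had 709 and 759 in WT and 611 and 369.7 in OPNKO (limma adjusted p = 0.159).

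Grn had normalized read counts of 62227 and 59325 in WT and of 62379 and 66496 in OPNKO. Both OPNKO libraries were the higher ones, by a gap smaller than that within either genotype. The mean went from 60776 ± 2052 to 64437 ± 2912 (SD, n = 2 each), a fold of 1.06 with a 95% interval of 0.925 to 1.21 and a log2 fold change of 0.08 ± 0.08 (SE) at a limma adjusted p of 0.614. Grn lies on chromosome 11 (102430315 to 102437048). Of 14 other genes of the granulin system, 1 rose and 0 fell (7.14%, against 4.32% of all genes tested), with a median of 0.07. Slpi, a secreted protease inhibitor that shields progranulin from cleavage, had 2968 and 2032 in WT and 4601 and 4439.97 in OPNKO, and both OPNKO libraries were higher. Its log2 fold change was 0.88 ± 0.16 (SE) at a limma adjusted p of 0.0279, and Slpi did not pass with any library left out (0.61 to 1.15 on the log2 scale; limma adjusted p = 0.0699 to 0.127). Sort1, the receptor that carries progranulin to the lysosome, had 62440 and 57647 in WT and 65181 and 69490 in OPNKO (limma adjusted p = 0.329).

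Of 41 genes of signalling below these receptors, 2 rose and 0 fell (4.88%, near the 4.32% of all genes), with a median of 0.09. Pik3ca, the catalytic subunit of PI3-kinase alpha, had 3302.9 and 3302.6 in WT and 4429 and 4393 in OPNKO (log2 fold change 0.42; limma adjusted p = 0.0140). Foxo3, a transcription factor that AKT inhibits, had 2627 and 2856 in WT and 3944 and 3667 in OPNKO (log2 fold change 0.47; limma adjusted p = 0.0183). The 7 lists were chosen with earlier results of these data known. Over them, 131 genes counted once were tested, and 6 rose and 5 fell, or 8.40% against 4.32% of all genes. Without WT replicate 1, and also without WT replicate 2, 0 of them passed; 9 passed without OPNKO replicate 1 and 8 without OPNKO replicate 2.

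**Figure D3:**
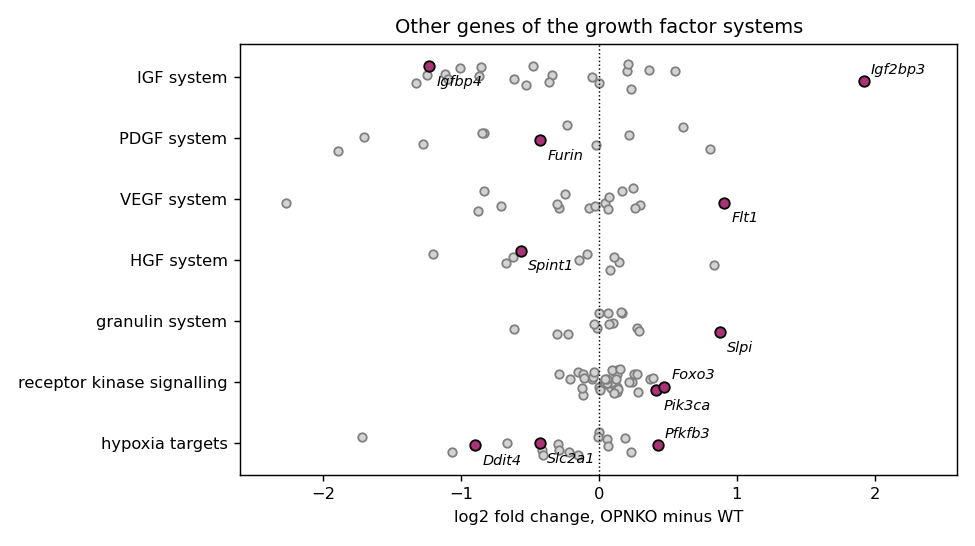
Log2 fold change (horizontal axis, OPNKO minus WT) of the other genes of each growth factor system, 1 point a gene and 1 row a list; dark named points passed a limma adjusted p of 0.05 and grey points did not. The named genes lie on both sides of 0, from Igfbp4 at -1.23 to Igf2bp3 at 1.92.

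Levels of different members were compared per kilobase of annotated exon (normalized read count per kb, mean of the 4 libraries). Grn came first at 18022, above 99.6% of 16223 genes with a length, followed by Igf1 at 974, Hgf at 560.3, Pdgfc at 521, Igf2r at 382, Pdgfb at 255, Vegfb at 212, Pdgfa at 199, Vegfa at 195 and Igf1r at 10.1. Grn, Igf1 and Igf1r were apart from their neighbours in this order in every library, as was Igf2r from Pdgfb. The ranges of Hgf and Pdgfc, of Pdgfc and Igf2r, and of each neighbouring pair from Pdgfb to Vegfa overlapped. The ligand gene Igf1 thus stood near the 87.3 percentile of levels per kb and the gene of its receptor near the 20.9 percentile.

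**Figure D4:**
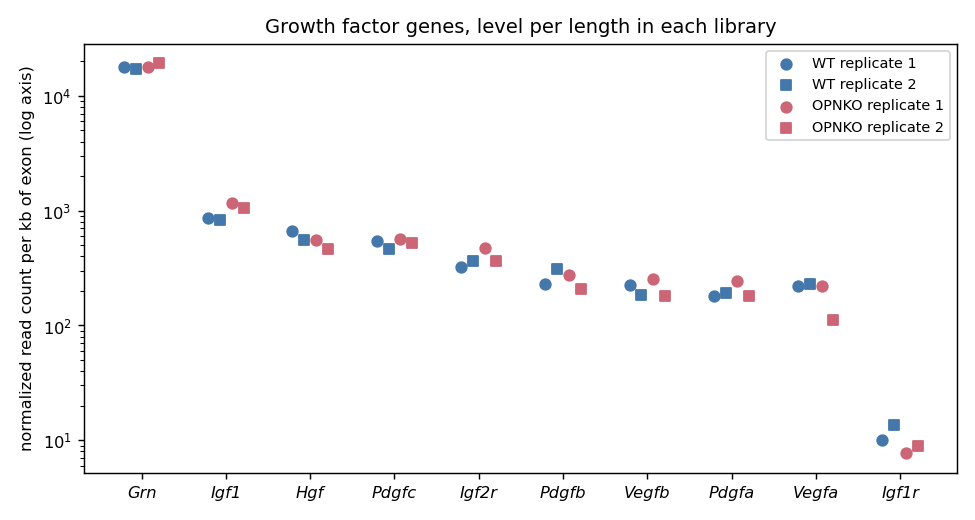
Normalized read count per kb of exon (vertical log axis) of each growth factor gene in each library, ordered by the mean; circles are replicate 1 and squares replicate 2, blue is WT and red OPNKO. Grn lies above all others and Igf1r below them, and the members from Pdgfb to Vegfa lie together near 200 per kb.

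Taking the 10 members together, 6 had a positive and 4 a negative log2 fold change, with a median of 0.08. For 5 of them both libraries of a genotype lay above both of the other (2 higher and 3 lower in OPNKO), where this held for 52.7% of all genes tested, so the share is near that of any gene. For 6 members the OPNKO libraries differed from each other by more than the genotypes did, and for 3 the WT libraries did. The 9 members that did not pass had limma adjusted p of 0.218 to 0.867, and the 95% intervals of 7 of them reached a change as large as that of Igf1 (0.39 on the log2 scale) in one direction, while those of Pdgfc and Grn did not.

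**Figure D5:**
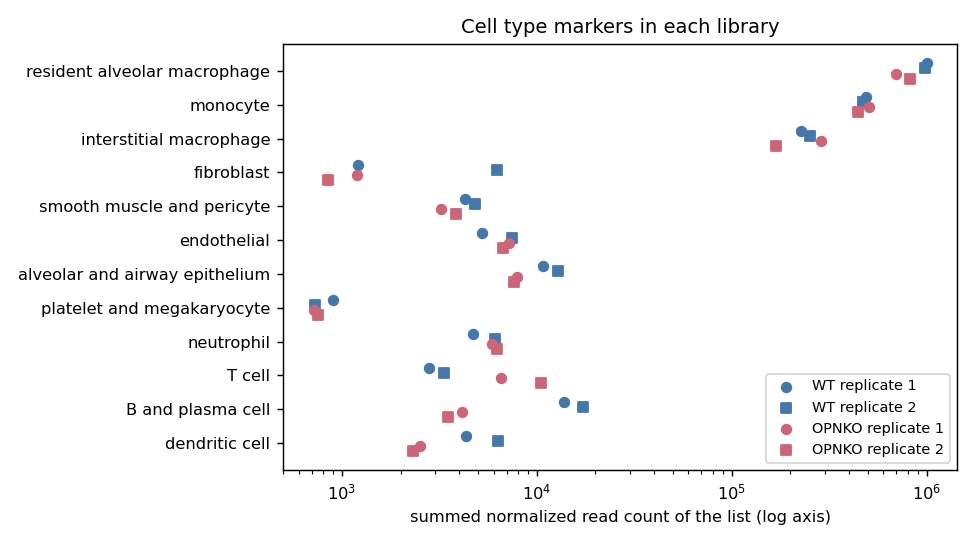
Summed normalized read count (horizontal log axis) of 12 lists of cell type markers in each library; circles are replicate 1 and squares replicate 2, blue is WT and red OPNKO. WT replicate 2 stands out for fibroblast markers (6249 against 848 to 1207), both OPNKO libraries are high for T cell markers (6531 and 10572 against 2786 and 3344) and low for B and plasma cell markers (4138 and 3495 against 13850 and 17256) and dendritic cell markers (2507 and 2308 against 4340 and 6300), and the macrophage and monocyte lists exceed all others.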

How the data were processed

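Bulk RNA-seq of sorted alveolar macrophages was analysed, 2 WT and 2 OPNKO libraries grouped by their titles. The tools named, per the submitters' processing notes, are edgeR, HTSeq 0.6.1p1, STAR 2.4.1d and Trim Galore 0.4.0, without role or order; build, annotation and strand setting: not given in the sources used here. Per the file headers, the authors deposited a normalized expression signal for each library. Judged from the values, these are reads divided by 1 factor per library, since 100% of values were whole multiples of 1 read (tolerance 0.001), and reads were recovered on that basis. On those reads edgeR called 694 genes. The authors deposited a log2 fold change with its standard error, a Wald score, and a p-value with its adjusted p-value, per the file headers. Another 2 unlabelled columns were not used.

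The signal was tested with limma 3.58.1 (trend; R 4.3.3), OPNKO minus WT on the scale log2(value + 1), over 16431 genes of mean value at least 1 (324 left out), with Benjamini-Hochberg adjustment over all of them and a threshold of 0.05. All 10 members passed this filter. With 2 libraries against 2, the smallest exact permutation p is 0.333. Intervals are 95%. Alternatives were other scaling factors, pseudocounts and filters, each library left out, the replicate number as a block, and edgeR 4.0.16 and DESeq2 1.42.0 on recovered reads. Named genes were the members, Spp1, up to 4 called genes per pathway list and the 5 nearest to Igf1. Marker lists were given by their sums, with some called markers named. Insr, Kdr, Vwf, Chi3l3, Pdgfra, Pdgfrb, Plat, Hif1a, P4ha2, Adm, Spint2, Met and Sort1 were chosen after their values were seen. So were the genes of the closing section. Of the lists, 10 genes of 3 pathways were not analysed here. Members and lists were chosen with earlier results of these data known. Tables and plots used Python 3.11.15, pandas 2.3.3, numpy 2.4.6 and matplotlib 3.10.9.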

Additional observations from a re-analysis of the deposited data

How the results depend on the processing

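Igf1 kept its direction in all 14 alternatives and passed in 10 of them; its log2 fold change was 0.39 without a filter on low values (limma adjusted p = 0.130) and 0.31 to 0.46 with a library left out. With no filter, 1 gene, 0 members and 0 pathway genes passed, the 1 gene being Spp1. With DESeq2, 1136 genes and 24 pathway genes passed, and with the replicate block 1566 genes, 2 members (Igf1 and Hgf, at -0.27) and 28 pathway genes; the causes were not tested. The differences between replicates 1 and 2 did not go together in WT and OPNKO (correlation across genes -0.03). This cannot show whether libraries of the same number share a batch. Leaving out a library, which assumes that the lone library of its genotype varies like the other genotype, gave 4 to 545 genes, 0 to 1 members and 0 to 9 pathway genes. In the same way Vegfa ran from -1.01 to -0.024, Pdgfa from -0.047 to 0.40, Pdgfb from -0.40 to 0.050, Pdgfc from -0.0054 to 0.23 and Vegfb from -0.17 to 0.32. Grn, Igf1r and Igf2r kept their direction and did not pass in any of the 14. Scaling factors moved the median of all genes by less than 0.1 on the log2 scale. Per kb of the longest transcript, Pdgfa and Vegfb changed places in the order of levels. Depth limits Igf1r most, with 113 to 235 reads in a library.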

Other observations

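Of the 10 growth factor genes, 8 had their lower OPNKO value in replicate 2 (median log2 difference over the 10 of -0.31), against 51.0% of all genes tested. Among the 8082 genes whose mean value reached 500, which leave out Igf1r and Vegfb, the share was 52.5%. In WT, 5 of the 10 were lower and 5 higher in replicate 2. Only 10 of these 8082 genes differed between the OPNKO libraries by at least as much as Vegfa, and all 10 were lower in OPNKO replicate 2. Beside Vegfa they were Crlf2, Junb, Tg, Cox8a, Mir5105, Il3ra, Thbs1, Nr4a3 and Mrpl52. Some also differed between the WT libraries (log2, replicate 2 minus replicate 1): Tg by 2.65, Cox8a by -0.72, Junb by -0.53, Crlf2 by -0.49 and Nr4a3 by -0.42. Differences in WT were smaller for Mrpl52 (-0.16), Thbs1 (0.08), Il3ra (-0.07), Mir5105 (-0.04) and Vegfa (0.04). Junb and Nr4a3 are immediate-early transcription factor genes, Crlf2 and Il3ra encode cytokine receptor chains, and Thbs1 encodes a matrix protein that inhibits vessel growth. Junb had normalized read counts of 30096 and 20823 in WT and of 30862 and 12882 in OPNKO. Thbs1 had 11254 and 11908 in WT and 5299 and 2523 in OPNKO, so it was lower in both OPNKO libraries. Interstitial macrophage markers were lower in OPNKO replicate 2 as well, 15 of 15 (median log2 difference -0.57). These genes were picked after their values were seen, and no cause was tested.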
